A study of Homo sapiens with 30 samples.

Results

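The genes described here are 8 members of the BCL2 family, the proteins that decide at the mitochondrial surface whether a cell survives or dies by apoptosis: MCL1, BCL2, BCL2L1, BAK1, BCL2L11, BAD, BID and BIK. Every probe set whose platform annotation gives exactly 1 of these symbols was taken, which gave 20 of the 22215 probe sets tested and 8 of the 11963 genes measured. MCL1 has 5 probe sets, BCL2 has 4, BCL2L1 has 3, BCL2L11, BAD and BID have 2 each, and BAK1 and BIK have 1 each. The cells were a mixed culture of Caco-2, a human colorectal carcinoma line that comes to resemble absorptive enterocytes, and HT29-MTX, a mucus-secreting human colon carcinoma line obtained with methotrexate, seeded at 75 to 25 from pooled flasks and differentiated for 14 days on porous Transwell inserts. Multi-walled carbon nanotubes (MWCNT) or titanium dioxide nanobelts (TiO2-NB) were added on the apical side. The exposed groups were MWCNT at 10 and 100 µg/ml and TiO2-NB at 10 and 100 µg/ml, each for 24 h and for 1 h, and the controls were cultures given fresh medium alone for 24 h and for 1 h. Each of the 10 groups has 3 replicates that the labels call biological, so there are 30 arrays. Flasks of cells were pooled before seeding, so the p-values may measure only the spread between wells. A control of suspension liquid without particles is not among the groups that the labels name.

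BCL2 family proteins fall into 3 kinds. The guardians MCL1, BCL2 and BCL2L1 (whose long form is BCL-XL) hold back the effectors, of which BAK1 is one, and an effector that is set free opens the outer mitochondrial membrane and releases cytochrome c to the apoptosome. The BH3-only proteins BCL2L11 (BIM), BAD, BID and BIK bind guardians, effectors or both, and so tip the balance toward death. MCL1 is short-lived as messenger and as protein, and in intestinal epithelium BCL-XL and MCL1 are both known to keep cells alive. In RefSeq, on GRCh38.p14, MCL1 lies on chromosome 1 from 150574558 to 150579610, BCL2 on chromosome 18 from 63123346 to 63320090, BCL2L1 on chromosome 20 from 31664452 to 31723963 and BAK1 on chromosome 6 from 33572552 to 33580276. BCL2L11 lies on chromosome 2 from 111120914 to 111168445, BAD on chromosome 11 from 64269828 to 64284704, and BID and BIK on chromosome 22 from 17734138 to 17774665 and from 43110750 to 43129712. No probe coordinates were used, so which exon or transcript form a probe set reads is not stated.

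Promoter sequences are shown for BCL2L1 and BAD, the gene whose probe sets rose most and a gene with some unstable calls of a fall after 1 h of exposure. Each is the 250 bases before a RefSeq start, read 5′ to 3′ on the minus strand of GRCh38.p14, at chr20:31723964-31724213 for BCL2L1 and chr11:64284705-64284954 for BAD. Capitals mark the CRE half-site TGACG and the TATA box TATAAA, searched on both strands.
BCL2L1: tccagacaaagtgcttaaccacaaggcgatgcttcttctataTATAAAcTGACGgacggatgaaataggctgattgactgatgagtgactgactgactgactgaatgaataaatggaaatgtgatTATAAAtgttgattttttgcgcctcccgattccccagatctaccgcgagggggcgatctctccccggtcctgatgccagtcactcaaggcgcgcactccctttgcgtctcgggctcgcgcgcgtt
BAD: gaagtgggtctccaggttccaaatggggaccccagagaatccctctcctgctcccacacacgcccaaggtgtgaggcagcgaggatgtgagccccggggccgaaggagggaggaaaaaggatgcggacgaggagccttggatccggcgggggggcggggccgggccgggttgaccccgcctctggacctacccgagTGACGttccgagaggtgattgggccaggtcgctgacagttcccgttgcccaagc
The BCL2L1 window holds TGACG from 201 bases before the start, and TATAAA from 208 and from 125 bases before it; its GC content is 50%. A second RefSeq start of BCL2L1, whose window at chr20:31722869-31723118 is not printed, holds neither motif. BAD also has a second RefSeq start, whose window at chr11:64284666-64284915 is not printed. That window holds TGACG from 93 bases before its start and has a GC content of 69.6%. The printed BAD window holds TGACG from 54 bases before the start. Its GC content is 66.4%, against a median of 58% over 35116 promoter windows of the same length. TGACG occurs in 21.2% of those windows and TATAAA in 10.7%, so TGACG is a common match. Other motifs searched were a STAT site (TTCNNNGAA, in 6.57% of windows), a kappa B site (1.73%), a FOXO site (GTAAACA, 2.98%) and an E-box (CACGTG, 6.34%), none of which is in either printed window. The GC box GGGCGG, in 42.6% of windows, is in the printed BAD window from 99 bases before the start and is left in lower case. A match is a stretch of letters only.

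Levels are log2 values after RMA, the authors' normalisation, so a difference of 1 is a doubling, and a change in a gene is one against the rest of its array. The array medians lay between 6.45 and 6.49. The 14 enterocyte markers averaged 9.85 to 9.94 over the groups and the 12 goblet cell markers 8.71 to 8.84, while 9 leukocyte markers averaged 5.86 to 6.00 and 9 fibroblast and endothelial markers 5.74 to 5.85. Single markers were called at 1 h beside the member changes. The goblet marker MUC13 rose in all 4 exposures by 0.17 to 0.23, and TFF2 fell by 0.22 with TiO2-NB at 100 µg/ml. Of the 14 enterocyte markers, APOB rose by 0.37 and CDX2 fell by 0.24 with MWCNT at 100 µg/ml. Of the leukocyte list, LYZ rose by 0.27 to 0.38 and NKG7 by 0.21 to 0.23 in all 4. CD53 rose by 0.26 with TiO2-NB at 100 µg/ml. The NKG7 means at 1 h were low, between 4.63 and 4.86, while those of LYZ, between 10.98 and 11.36, lay far above the average of its list. In the controls from 1 h to 24 h, LYZ rose by 0.41, NKG7 and CD53 by 0.23 each and MUC13 by 0.20. APOB and CDX2 rose there by 0.26 and 0.28, and CD14 fell by 0.44. At 24 h, MUC5AC and CD14 rose by 0.33 and 0.31 with TiO2-NB at 100 µg/ml. The part of these markers in the member results was not tested. In bulk RNA of 2 lines, fewer cells of a type and less RNA per cell cannot be told apart. Of the 20 probe sets, 7 lay in the lowest 1 in 3 of all probe sets by mean level, under 5.35: MCL1 214056_at and 200796_s_at, BCL2 207005_s_at, 203684_s_at and 203685_at, and both of BCL2L11. The probe set with the highest mean stands for a gene; these were MCL1 200797_s_at (11.07), BCL2L1 212312_at (10.20), BAD 209364_at (8.77), BID 211725_s_at (8.55), BAK1 203728_at (7.36), BIK 205780_at (7.25), BCL2 207004_at (6.06) and BCL2L11 222343_at (5.25). These levels are of different probes and have no order between genes. Below, ± is the standard error from limma with n = 3 arrays a group. A call is a Benjamini-Hochberg adjusted p under 0.05 over all 22215 probe sets. All exposed groups of a time are compared with the same 3 control arrays. Arrays said to lie apart or not to overlap are a description only. Where nothing differs, 3 arrays lie fully apart from 3 others with a probability of 0.1. The share of all probe sets whose arrays lie apart is not given.

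After 1 h, BCL2L1 was higher in exposed cultures by 0.12 to 0.22 on its brightest probe set, 212312_at, which was called at 100 µg/ml only. On the dimmer 215037_s_at it was higher by up to 0.57 on the log2 scale, and MCL1 200797_s_at was lower by 0.12 to 0.17. Of the 20 probe sets, 2 rose and 2 fell with MWCNT at 10 µg/ml, where 2.56% of all probe sets rose and 3.9% fell. At 100 µg/ml of MWCNT, 5 rose and 2 fell, against 3.51% and 4.27% of all. With TiO2-NB at 10 µg/ml, 2 rose and 1 fell (2.61% and 5.24% of all), and at 100 µg/ml 4 rose and 2 fell (2.65% and 5.78% of all). The 4 comparisons share their controls, so these counts are not 4 separate observations. With any 1 array left out, the number called was 2 to 5 and 2 to 4 with MWCNT at 10 and 100 µg/ml and 0 to 3 and 2 to 5 with TiO2-NB, and with the 18S ribosomal RNA level in the fit it was 1, 0, 1 and 2. In a fit on the compared groups alone the calls left were BCL2L1 206665_s_at with MWCNT at 10 µg/ml and with TiO2-NB at 100 µg/ml, and 215037_s_at with MWCNT at 100 µg/ml. After 24 h, 0 of 20 was called in each of the 4 comparisons by limma; 0.0045% and 0.009% of all probe sets were called with MWCNT at 10 and 100 µg/ml, and 0.0585% and 3.53% with TiO2-NB at 10 and 100 µg/ml. At an unadjusted p under 0.05, those 24 h comparisons held 1, 2, 1 and 1 of the 20.

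**Figure D1:**
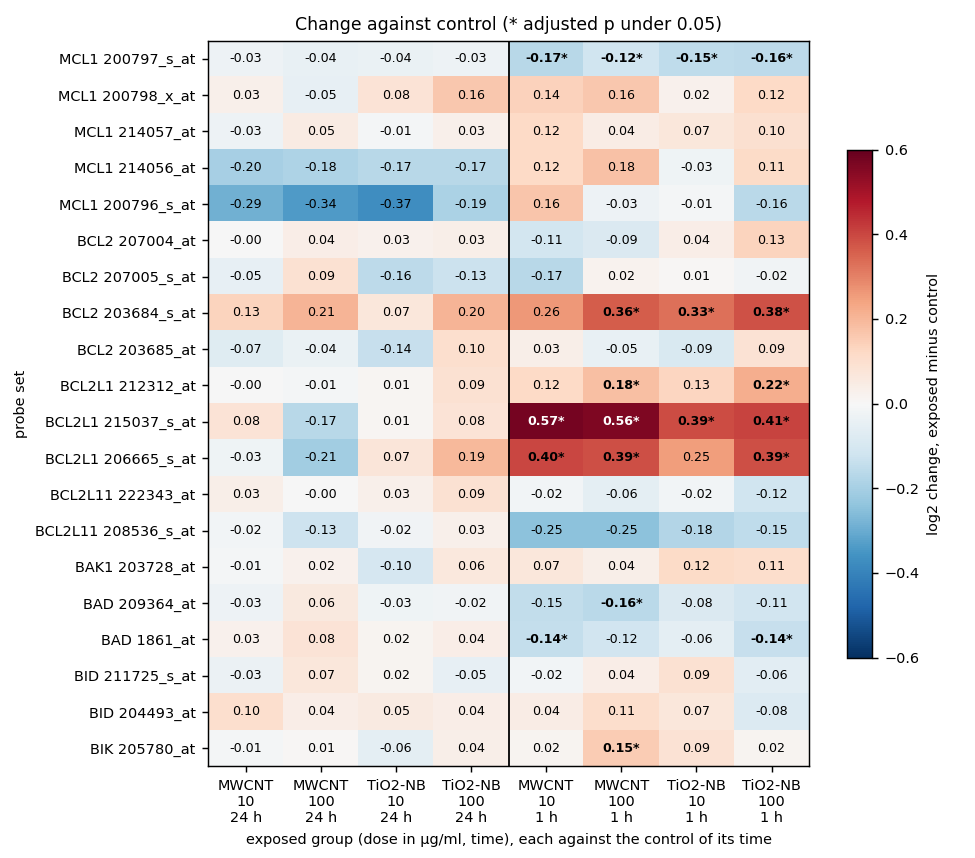
Log2 change of each of the 20 probe sets (rows) in each exposed group against the control of its time (columns, dose in µg/ml), with an asterisk where limma's adjusted p is under 0.05. The calls lie in the 1 h columns, where BCL2L1 215037_s_at has the largest change, 0.57.

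BCL2L1 was the member with most calls against control. Its probe set 215037_s_at read 7.45, 7.13 and 7.22 with MWCNT at 10 µg/ml for 1 h and 7.24, 7.24 and 7.27 at 100 µg/ml. It read 7.16, 7.27 and 6.81 with TiO2-NB at 10 µg/ml and 6.90, 7.26 and 7.12 at 100 µg/ml, against 6.78, 6.68 and 6.61 in the 1 h controls. All 12 exposed arrays lay above all 3 control arrays. The probe set rose by 0.57 ± 0.115 with MWCNT at 10 µg/ml (adjusted p = 0.00291), which is 1.49-fold. At 100 µg/ml the rise was 0.56, or 1.47-fold (adjusted p = 0.00321). It rose by 0.39 with TiO2-NB at 10 µg/ml (adjusted p = 0.0356) and by 0.41 at 100 µg/ml (adjusted p = 0.0272). In a fit on the compared groups alone, the call with MWCNT at 100 µg/ml held and the others did not. Both MWCNT calls held whichever array was left out. The TiO2-NB calls were lost without control replicate 2 or 3, without exposed replicate 1 or 2 at 10 µg/ml and without exposed replicate 2 or 3 at 100 µg/ml, with an adjusted p of up to 0.176 and 0.154.

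The second BCL2L1 probe set, 206665_s_at, read 7.29, 7.17 and 7.16 with MWCNT at 10 µg/ml for 1 h and 7.12, 7.14 and 7.32 at 100 µg/ml. With TiO2-NB it read 7.11, 7.22 and 6.84 at 10 µg/ml and 7.06, 7.29 and 7.22 at 100 µg/ml, against 6.81, 6.82 and 6.79 in the controls. Again no exposed array reached down to the controls. It rose by 0.40 ± 0.0986 and 0.39 with MWCNT at 10 and 100 µg/ml (adjusted p = 0.0143 and 0.0152) and by 0.39 with TiO2-NB at 100 µg/ml (adjusted p = 0.0143). The difference of 0.25 with TiO2-NB at 10 µg/ml was not called. The MWCNT calls were lost without exposed replicate 1 at 10 µg/ml and exposed replicate 3 at 100 µg/ml, and the TiO2-NB call without control replicate 3 or exposed replicate 2 (adjusted p up to 0.0812, 0.089 and 0.0826).

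The brightest BCL2L1 probe set, 212312_at, moved less. It rose by 0.22 ± 0.0514 with TiO2-NB at 100 µg/ml (adjusted p = 0.00857), with 10.50, 10.48 and 10.42 against 10.35, 10.24 and 10.17 in the controls, and these arrays did not overlap. With MWCNT at 100 µg/ml it rose by 0.18 (adjusted p = 0.0295), and the lowest exposed array, 10.35, overlapped the highest control. The differences of 0.12 with MWCNT and 0.13 with TiO2-NB at 10 µg/ml were not called. The MWCNT call was lost without replicate 2 or 3 of either group (adjusted p up to 0.145), and the TiO2-NB call without control replicate 3 (adjusted p = 0.0664). Both were lost in a fit on the compared groups alone (adjusted p = 0.294 and 0.15), and the MWCNT call also with the 18S level in the fit (adjusted p = 0.474).

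The BCL2L1 rise at 1 h went with a difference in the ribosomal RNA probe sets. The mean of the 3 18S probe sets was 9.05 and 9.30 with MWCNT at 10 and 100 µg/ml and 8.84 and 8.81 with TiO2-NB, against 8.37 in the 1 h controls (exact two-sided permutation p = 0.1, 0.1, 0.4 and 0.1; 0.1 is the smallest that 3 arrays against 3 can give). The 28S probe sets were higher by 0.14, 0.20, 0.20 and 0.11. ACTB 3 prime was higher by 0.11, 0.10, 0.09 and 0.11 in that order (exact permutation p = 0.1 in each). ACTB 5 prime was higher by 0.13, 0.08, 0.08 and 0.16 (exact permutation p = 0.1, 0.3, 0.3 and 0.2). The GAPDH probe sets were higher by 0.01 to 0.06. The part of the ACTB differences in the member results was not tested. With the 18S level of each array in the fit, 215037_s_at differed from control by 0.36 and 0.27 with MWCNT at 10 and 100 µg/ml (adjusted p = 0.0779 and 0.34) and by 0.24 and 0.27 with TiO2-NB (adjusted p = 0.175 and 0.122), and none of these was called. The one BCL2L1 call left under that fit was 212312_at with TiO2-NB at 100 µg/ml, at 0.18 (adjusted p = 0.0384). The part of RNA quality in the BCL2L1 difference was not tested beyond this.

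**Figure D2:**
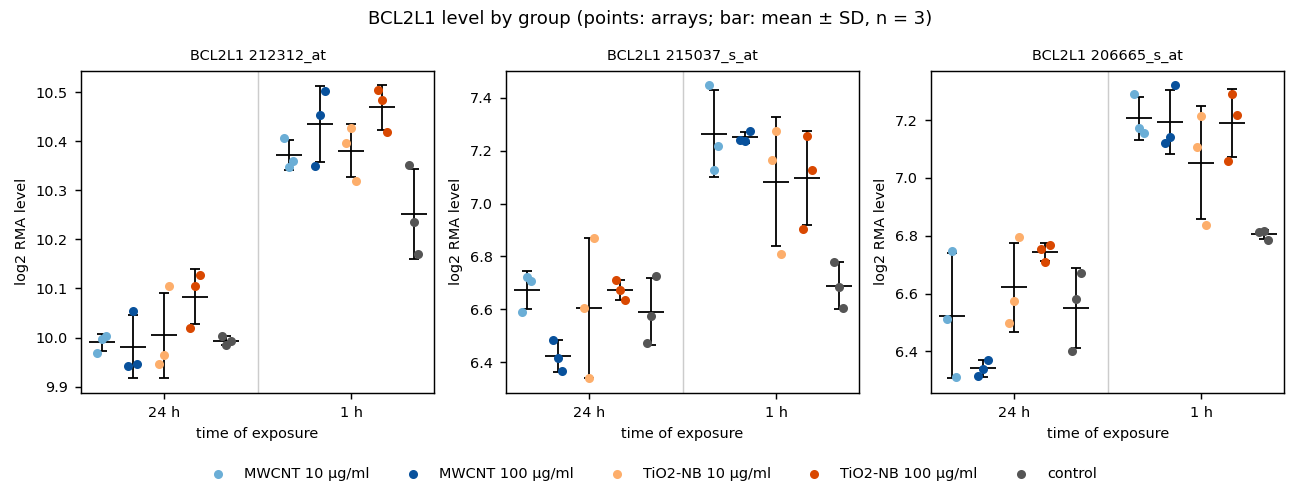
Log2 level of the 3 BCL2L1 probe sets on each array (points) by group, with the mean ± SD of 3 arrays, for 24 h on the left and 1 h on the right of each panel. For 215037_s_at the 12 arrays exposed for 1 h all lie above the 1 h controls, which reach 6.78.

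At 24 h no difference of BCL2L1 from control was called. Probe set 215037_s_at averaged 6.67 and 6.42 with MWCNT at 10 and 100 µg/ml and 6.61 and 6.67 with TiO2-NB, against 6.59 in the 24 h controls. Between 24 h and 1 h, all 3 probe sets fell in all 4 exposed conditions, by 0.38 to 0.85. Of these 12 calls, 1 was lost on leaving out a single array, that of 215037_s_at with TiO2-NB at 100 µg/ml without replicate 2 at 1 h (adjusted p = 0.0522). In the controls 212312_at fell by 0.26 (adjusted p = 7.46e-04), and the other two, at -0.10 and -0.25, were not called.

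The difference between the effect at 24 h and the effect at 1 h was tested itself. With MWCNT at 100 µg/ml it was -0.73 ± 0.162 for 215037_s_at (adjusted p = 0.0157) and -0.60 ± 0.139 for 206665_s_at (adjusted p = 0.0203), where 2.71% of all probe sets were called. For the other 3 exposures, 0 of 20 was called by limma (1.79% of all with MWCNT at 10 µg/ml, and 3.83% and 5.84% with TiO2-NB at 10 and 100 µg/ml), and 5, 5 and 2 of the 20 had an unadjusted p under 0.05. For 215037_s_at these values were -0.49 with MWCNT at 10 µg/ml (unadjusted p = 0.00586, adjusted p = 0.138), and -0.38 and -0.32 with TiO2-NB at 10 and 100 µg/ml (adjusted p = 0.22 and 0.289). With the 18S level in the fit the 2 called values became -0.45 and -0.36, and neither was called (adjusted p = 0.176 and 0.219).

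In order of its mean, BCL2L1 212312_at was highest with TiO2-NB at 100 µg/ml for 1 h (10.47), then MWCNT at 100 µg/ml (10.43), TiO2-NB at 10 µg/ml (10.38), MWCNT at 10 µg/ml (10.37) and the 1 h controls (10.25). The 24 h groups followed, from TiO2-NB at 100 µg/ml (10.08) to MWCNT at 100 µg/ml (9.98), with the controls at 9.99. In that order the arrays of each neighbouring pair overlapped, except between the 1 h controls and the highest 24 h group.

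MCL1, the guardian with the brightest probe set, changed in different ways on different probe sets. On 200797_s_at it read 11.07, 11.06 and 11.06 with MWCNT at 10 µg/ml for 1 h and 11.14, 11.07 and 11.11 at 100 µg/ml. With TiO2-NB it read 11.11, 11.12 and 11.00 at 10 µg/ml and 11.09, 11.08 and 11.05 at 100 µg/ml, against 11.20, 11.28 and 11.21 in the controls. All 12 exposed arrays lay below all 3 controls. The probe set fell by 0.17 ± 0.0359 and 0.12 with MWCNT at 10 and 100 µg/ml (adjusted p = 0.00559 and 0.0386) and by 0.15 and 0.16 with TiO2-NB (adjusted p = 0.00835 and 0.00622). With the 18S level in the fit, the calls at MWCNT 10 µg/ml and both doses of TiO2-NB held, at -0.19, -0.17 and -0.17, and that at MWCNT 100 µg/ml, at -0.16, did not (adjusted p = 0.0877). In a fit on the compared groups alone none of the 4 was called, with an adjusted p of 0.179 and 0.377 with MWCNT and of 0.261 and 0.184 with TiO2-NB. The call with MWCNT at 100 µg/ml was lost without replicate 2 or 3 of either group (adjusted p up to 0.162), and that with TiO2-NB at 10 µg/ml without control replicate 2 or exposed replicate 3 (adjusted p up to 0.0733). The other 4 MCL1 probe sets were not called against control at 1 h, and 200798_x_at differed from control by 0.02 to 0.16 in the upward direction.

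Over time, 3 of the 5 MCL1 probe sets fell in all 5 conditions, controls included. Probe set 200798_x_at read 8.79, 8.81 and 8.80 in the 24 h controls, against 9.66, 9.75 and 9.67 in the 1 h controls. It fell by 0.89 ± 0.0603 there (1.86-fold, adjusted p = 1.54e-10). It fell by 1.00 and 1.10 with MWCNT at 10 and 100 µg/ml (2.01-fold and 2.15-fold) and by 0.84 and 0.85 with TiO2-NB at 10 and 100 µg/ml, and in each condition every 24 h array lay below every 1 h array.

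Probe sets 214056_at and 200796_s_at, which are dim, fell by 0.47 and 0.32 in the controls and by up to 0.83 and 0.77 in the exposed conditions. The 200796_s_at call was lost in the controls without replicate 1 or 2 at 1 h or replicate 2 or 3 at 24 h (adjusted p up to 0.211), and with TiO2-NB at 100 µg/ml without replicate 2 at 1 h or replicate 3 at 24 h (adjusted p up to 0.0622). Probe set 200797_s_at was called over time in the controls, where it fell by 0.16 (adjusted p = 0.00193), and in no exposed condition. The differences between its effect at 24 h and its effect at 1 h were 0.14 and 0.08 with MWCNT at 10 and 100 µg/ml and 0.11 and 0.13 with TiO2-NB, and none was called. Against control at 24 h, 200796_s_at averaged 4.77 and 4.72 with MWCNT at 10 and 100 µg/ml and 4.69 and 4.87 with TiO2-NB, against 5.06. Every exposed array lay below every control array there, and no difference was called. The -0.37 with TiO2-NB at 10 µg/ml was the largest fall of any member probe set against control at 24 h. Probe set 214057_at was called in no comparison, and its group means lay between 6.01 and 6.13.

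**Figure D3:**
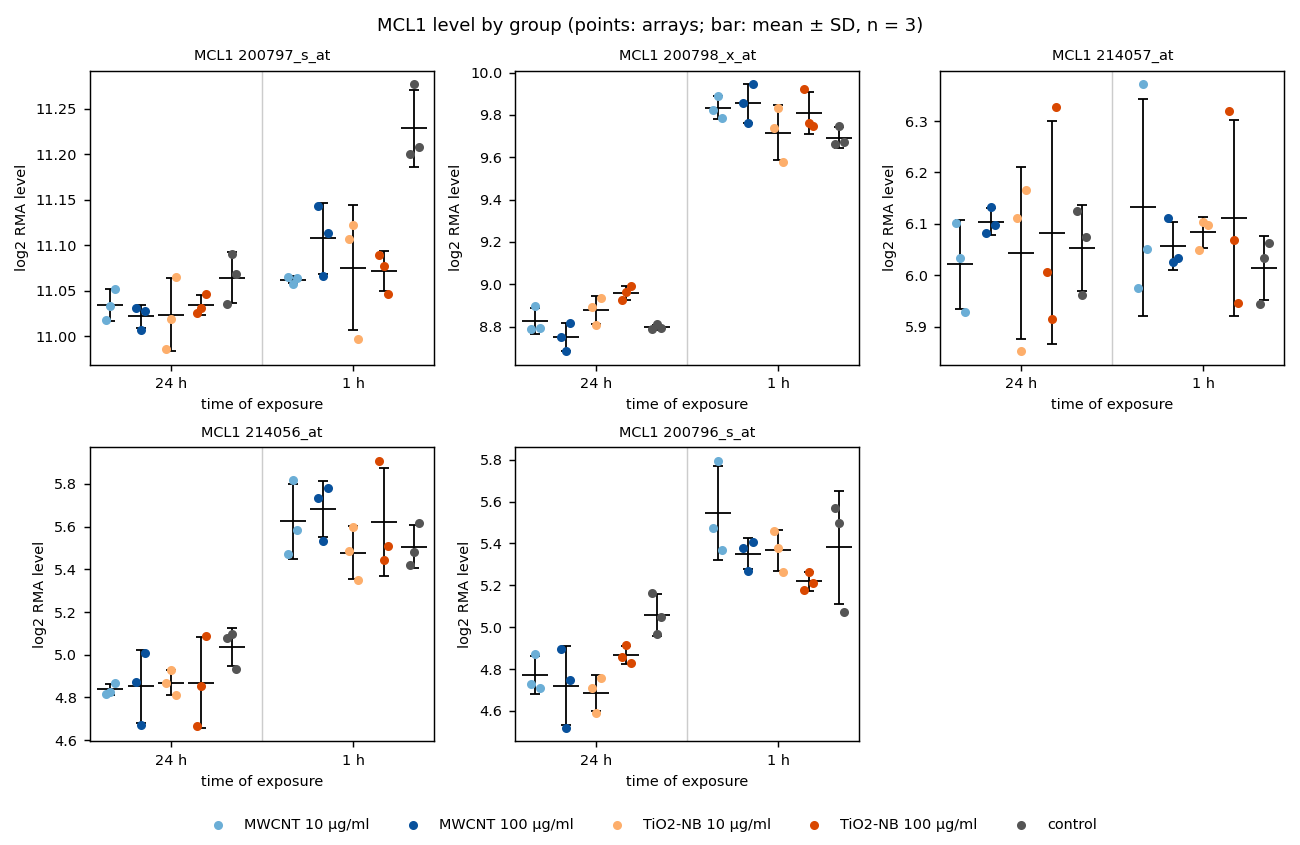
Log2 level of the 5 MCL1 probe sets on each array (points) by group, with the mean ± SD of 3 arrays, for 24 h on the left and 1 h on the right. On 200797_s_at the 1 h controls (11.20 to 11.28) stand above all other arrays, while on 200798_x_at, 214056_at and 200796_s_at the 24 h groups average below the 1 h groups.

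BCL2, the founding guardian, lay in the lowest 1 in 3 of the array on 3 of its 4 probe sets. One of these, 203684_s_at, read 5.22, 5.03 and 4.92 with MWCNT at 100 µg/ml for 1 h, 5.01, 5.16 and 4.91 with TiO2-NB at 10 µg/ml and 5.30, 5.01 and 4.92 with TiO2-NB at 100 µg/ml, against 4.68, 4.59 and 4.82 in the controls. The arrays of these 3 exposed groups lay above the controls. It rose by 0.36 ± 0.103, 0.33 and 0.38 in those groups (adjusted p = 0.0305, 0.0489 and 0.0209). With MWCNT at 10 µg/ml, whose arrays overlapped the controls, the difference of 0.26 was not called. All 3 calls were lost with the 18S level in the fit, without control replicate 1 or 2 and without exposed replicate 1, and those of MWCNT and of TiO2-NB at 10 µg/ml also without exposed replicate 2 (adjusted p up to 0.131, 0.196 and 0.152). The brighter 207004_at and the other two BCL2 probe sets were called in no comparison. On 207004_at the 1 h differences were -0.11 and -0.09 with MWCNT at 10 and 100 µg/ml and 0.04 and 0.13 with TiO2-NB, so the BCL2 probe sets differed in direction with MWCNT.

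BAK1, the effector, was called against control at neither time. Its probe set 203728_at averaged 7.44 and 7.40 with MWCNT at 10 and 100 µg/ml for 1 h and 7.48 and 7.47 with TiO2-NB, against 7.37 in the controls. Over time it fell by 0.29 ± 0.0547 with TiO2-NB at 10 µg/ml (adjusted p = 2.25e-04), with 7.20, 7.08 and 7.31 at 24 h against 7.45, 7.48 and 7.51 at 1 h, and these arrays did not overlap. It fell by 0.15 with MWCNT at 10 µg/ml (adjusted p = 0.0463), a call lost in 5 of the 6 fits that leave out 1 of its arrays, all but that without replicate 3 at 24 h. In the controls it averaged 7.29 at 24 h and 7.37 at 1 h, a difference that was not called.

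Among the BH3-only genes, BAD, which binds BCL2 and BCL-XL when it is not phosphorylated, had calls of a slight fall at 1 h. Several other fits did not keep them. On 209364_at it read 8.70, 8.69 and 8.72 with MWCNT at 100 µg/ml, against 8.83, 8.88 and 8.87 in the controls, and fell by 0.16 ± 0.0489 (adjusted p = 0.0427). On 1861_at it fell by 0.14 ± 0.0428 with MWCNT at 10 µg/ml (adjusted p = 0.0434) and by 0.14 with TiO2-NB at 100 µg/ml (adjusted p = 0.0491). The arrays of these groups lay below the controls. In all 4 exposures both probe sets differed from control in the downward direction at 1 h, by 0.06 to 0.16, and 3 of these 8 differences were called. Each of the 3 calls was lost with the 18S level in the fit, with array weights, in a fit on the compared groups alone and without control replicate 2 or 3. The 1861_at calls were also lost with the replicate block, a second quantile normalisation and the intensity trend. A moderated F-test over the 5 groups at 1 h called neither probe set (adjusted p = 0.137 on 209364_at and 0.0937 on 1861_at). The 209364_at call was lost without any 1 of its 6 arrays, and the 1861_at calls also without exposed replicate 1 or 2 of MWCNT and 2 or 3 of TiO2-NB. Over time 209364_at rose with MWCNT at 100 µg/ml, by 0.15 (adjusted p = 0.0252), a call lost without replicate 1 or 2 of either time, in a fit on those groups alone and with the 18S level in the fit.

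BIK, a BH3-only protein of the endoplasmic reticulum, read 7.37, 7.39 and 7.32 with MWCNT at 100 µg/ml for 1 h, against 7.22, 7.16 and 7.25 in the controls. It rose by 0.15 ± 0.0474 (adjusted p = 0.0494), the 2 groups did not overlap, and the call was lost whichever of the 6 arrays was left out and with the 18S level in the fit. In the other 3 exposures it differed by 0.02 to 0.09 and was not called.

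BID, which caspase-8 cuts to carry a death receptor signal to mitochondria, was not called against control at either time. Between 24 h and 1 h, 204493_at fell by 0.25 ± 0.0695 with MWCNT at 100 µg/ml (adjusted p = 0.00813) and by 0.20 with TiO2-NB at 10 µg/ml (adjusted p = 0.0343). Probe set 211725_s_at fell by 0.19 ± 0.0532 with TiO2-NB at 10 µg/ml (adjusted p = 0.00916), with 8.52, 8.52 and 8.48 at 24 h against 8.66, 8.76 and 8.66 at 1 h. The differences of -0.19 and -0.12 in the controls were not called. The 204493_at call with MWCNT was lost in a fit on the compared groups alone (adjusted p = 0.115) and with the 18S level in the fit. It was also lost without replicate 2 at 1 h or replicate 1 at 24 h, and the 211725_s_at call with TiO2-NB without replicate 2 at 1 h. The 204493_at call with TiO2-NB was lost in 5 of the 6 fits that leave out 1 of its arrays, all but that without replicate 2 at 24 h.

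BCL2L11 (BIM), a BH3-only protein that can engage every guardian, was called in no comparison on either probe set. On 222343_at its group means lay between 5.19 and 5.33, and on 208536_s_at between 4.07 and 4.46. Over the 8 comparisons the 95% intervals of its differences from control lay between -0.28 and 0.25 on 222343_at and between -0.53 and 0.31 on 208536_s_at.

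**Figure D4:**
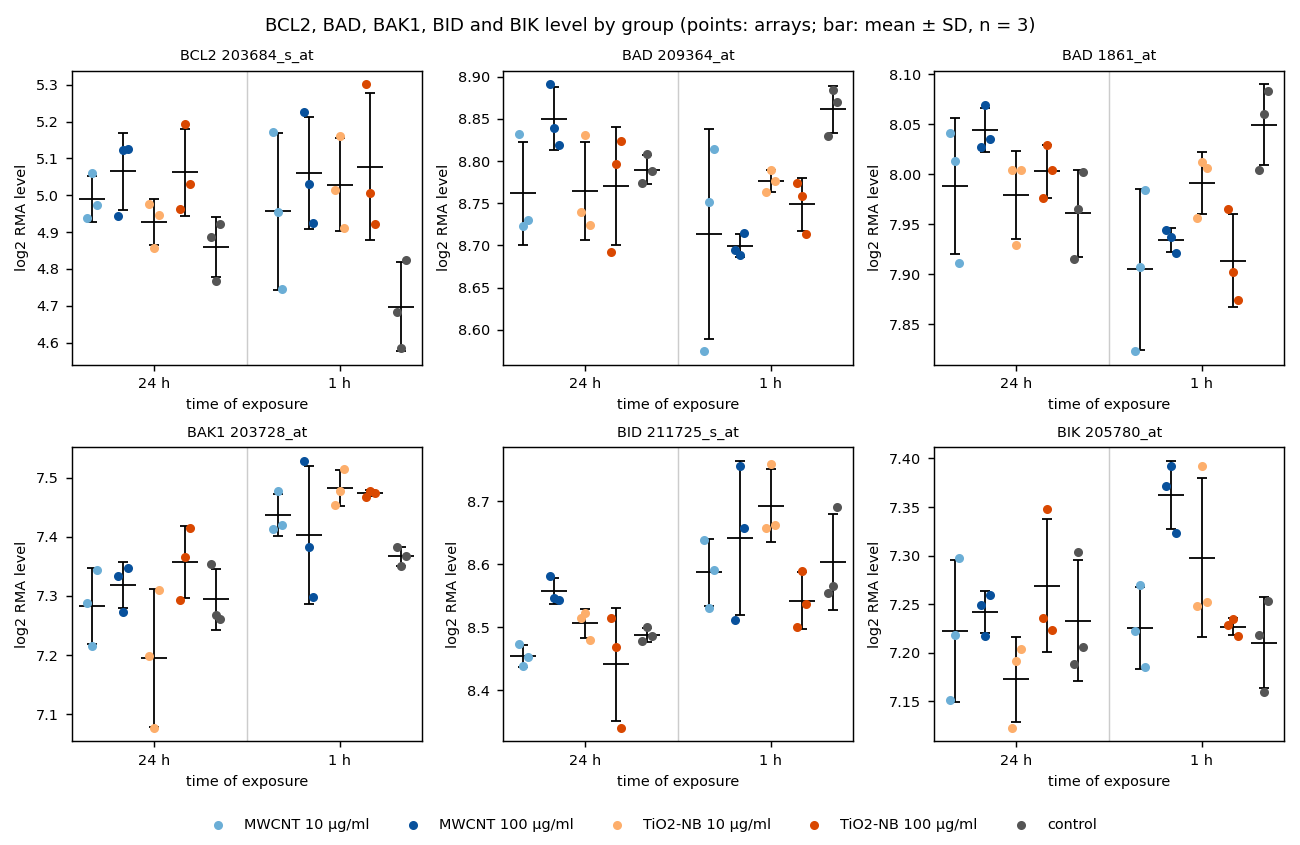
Log2 level of 6 probe sets of BCL2, BAD, BAK1, BID and BIK on each array (points) by group, with the mean ± SD of 3 arrays, for 24 h on the left and 1 h on the right. The span over 30 arrays is 0.72 for BCL2 203684_s_at, the widest of the 6, and 0.26 for BAD 1861_at, the narrowest.

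Across time, 0 of 20 rose and 5 fell in the controls, where 7.22% of all probe sets rose and 10.9% fell. With MWCNT at 10 µg/ml 0 rose and 7 fell (10.5% and 10.8% of all), and at 100 µg/ml 1 rose and 7 fell (11.7% and 13.7%). With TiO2-NB at 10 µg/ml 0 rose and 9 fell (13.6% and 13.7%), and at 100 µg/ml 0 rose and 6 fell (13.8% and 13.2%). The probe sets that fell in all 5 conditions were MCL1 200798_x_at, 214056_at and 200796_s_at and BCL2L1 212312_at. A moderated F-test over the 10 groups called 10 of the 20, against 38.5% of all probe sets. Over the 5 groups at 1 h it called 4 (MCL1 200797_s_at and the 3 of BCL2L1, against 8.52% of all). Over the 5 groups at 24 h it called 0 (3.14% of all), and 3 of the 20 had an unadjusted p under 0.05 there. The share of all probe sets under that unadjusted p is not given for this F-test.

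**Figure D5:**
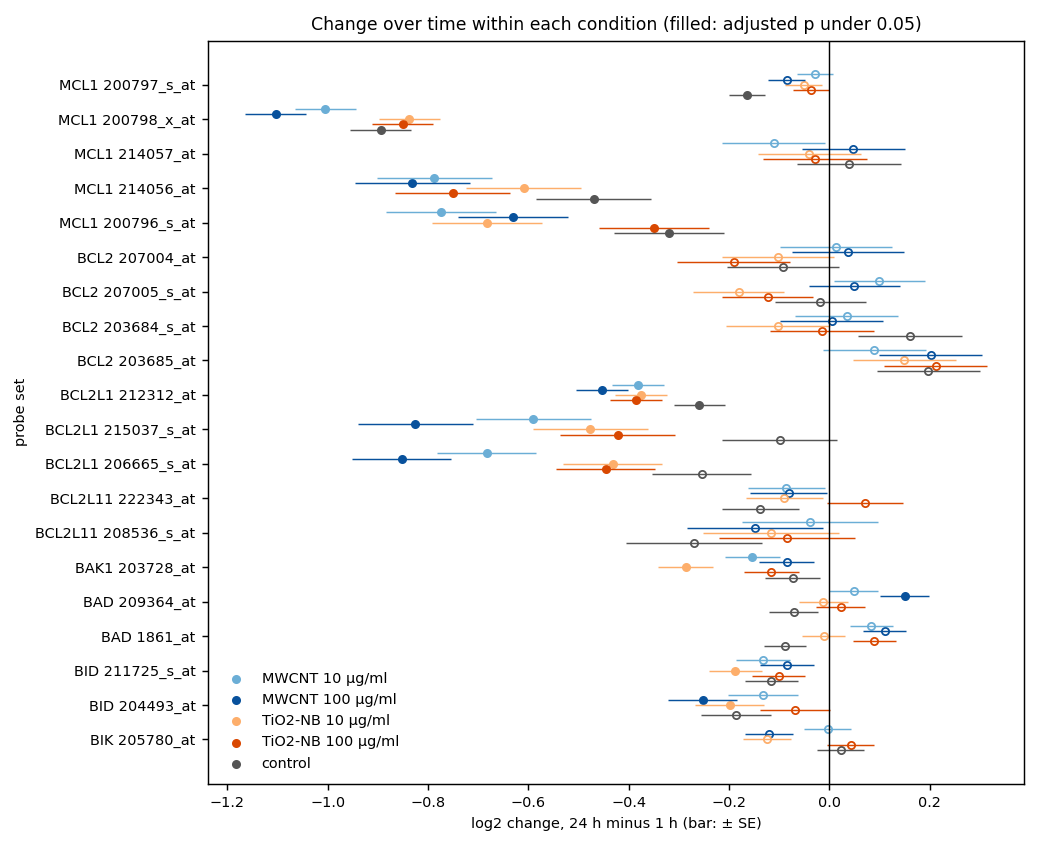
Log2 difference, 24 h minus 1 h, of each probe set within each condition, with ± SE, filled where limma's adjusted p is under 0.05. MCL1 200798_x_at lies furthest left, from -0.84 to -1.10, and the controls lie nearer 0 than the exposed conditions for all 3 BCL2L1 probe sets.

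No difference between doses, and at 1 h none between particles, was called. Between 100 and 10 µg/ml, 0 of 20 was called for each particle at each time (0% of all probe sets in 3 of these comparisons and 1.83% with TiO2-NB at 24 h), and 2, 2, 1 and 2 of the 20 had an unadjusted p under 0.05. For BCL2L1 215037_s_at at 1 h, 100 minus 10 µg/ml was -0.01 with MWCNT (95% interval -0.25 to 0.22) and 0.01 with TiO2-NB (-0.22 to 0.25). MWCNT minus TiO2-NB was 0.18 at 10 µg/ml (-0.06 to 0.42) and 0.15 at 100 µg/ml (-0.08 to 0.39).

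Between the particles, 0 of 20 was called at 1 h at 10 or 100 µg/ml, or at 24 h at 10 µg/ml (0.0675%, 0% and 0.0315% of all probe sets), and 0, 2 and 0 had an unadjusted p under 0.05. At 24 h and 100 µg/ml, 1 of 20 was called, where 2.88% of all probe sets were. BCL2L1 206665_s_at read 6.31, 6.34 and 6.37 with MWCNT and 6.75, 6.71 and 6.77 with TiO2-NB, a difference of -0.40 ± 0.0986 (adjusted p = 0.0208). The 2 groups did not overlap, and the 24 h controls, at 6.40, 6.58 and 6.67, lay between them. MCL1 200798_x_at was lower with MWCNT by 0.21 without a call (adjusted p = 0.0644), and 215037_s_at by 0.25 (adjusted p = 0.359).

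Other genes of the pathway were taken from lists, 1 probe set a gene. Of 12 further genes listed as effectors and BH3-only, not all of which are of these kinds, 1 rose at 1 h in each exposure. This was BAX, the other main effector. It rose by 0.50 and 0.45 with MWCNT at 10 and 100 µg/ml and by 0.39 and 0.43 with TiO2-NB (adjusted p from 4.03e-05 to 4.69e-04). BCL2L14 and MOAP1, which binds BAX, fell in all 4, by 0.28 to 0.35 and by 0.18 to 0.22. In the controls from 1 h to 24 h, BAX rose by 0.29 and BCL2L14 by 0.47, and MOAP1 fell by 0.26. With TiO2-NB at 10 µg/ml 4 fell, BCL2L13 among them, and in the other 3 exposures 2 fell. Of all genes at 1 h, 2.71% rose and 5.15% fell with MWCNT at 10 µg/ml, and 3.79% and 5.65% at 100 µg/ml. With TiO2-NB these shares were 3.02% and 6.5% at 10 µg/ml, and 3.07% and 7.44% at 100 µg/ml. Of 3 further guardians, BCL2L2 fell by 0.17 with TiO2-NB at 10 µg/ml (adjusted p = 0.0465), and no other call was made. After 24 h with TiO2-NB at 100 µg/ml, PMAIP1 (NOXA, a BH3-only partner of MCL1) averaged 5.09 against 4.63 in the controls and rose by 0.45 (adjusted p = 0.0365); 0.853% of all genes rose there and 2.3% fell. It had fallen by 0.99 in the controls between 24 h and 1 h.

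Downstream of the mitochondria, 1 or 2 of 8 apoptosome and caspase genes fell in each exposure at 1 h, and no other was called. Beside this and the lists below, 2.71% to 3.79% of all genes rose and 5.15% to 7.44% fell in the exposures at 1 h. APAF1, the scaffold of the apoptosome, fell by 0.24 with MWCNT at 10 µg/ml and by 0.35 and 0.34 with TiO2-NB at 10 and 100 µg/ml. From 1 h to 24 h in the controls, APAF1 rose by 0.68. DFFB, the nuclease that cuts DNA in apoptosis, fell by 0.37 with MWCNT at 100 µg/ml and by 0.45 and 0.44 with TiO2-NB. After 24 h with TiO2-NB at 100 µg/ml DFFA, which holds DFFB inactive, fell by 0.30 (adjusted p = 0.00562). Of 7 genes listed as caspase inhibitors and their antagonists, 2 or 3 fell in each exposure and no other was called. ENDOG, which is on that list but is a mitochondrial nuclease and neither inhibits caspases nor opposes their inhibitors, fell in all 4, by 0.15 to 0.25. From 1 h to 24 h in the controls, ENDOG fell by 0.23, and no other gene of that list was called. HTRA2, which opposes the inhibitors, and BIRC2, one of them, fell in 3 exposures each. Among 12 death receptor genes, TNFRSF1A rose by 0.19 at both MWCNT doses, and CFLAR, TRADD and TNFSF10 fell in 1 or 2 exposures each.

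Among 10 genes of the outer membrane and of mitochondrial shape, OPA1, which fuses inner membranes and keeps cristae closed, rose in all 4 exposures at 1 h by 0.23 to 0.34, and DNM1L, which divides mitochondria, fell by 0.24 and 0.29 with TiO2-NB. Of 16 transcription factors known to act on BCL2 family genes, MYC rose by 0.31 to 0.44 and JUN fell by 0.39 to 0.56 in all 4 exposures at 1 h, and DDIT3 (CHOP, a factor of the stress response of the endoplasmic reticulum) rose by 0.33 with MWCNT at 100 µg/ml (adjusted p = 0.0298). From 1 h to 24 h in the controls, MYC fell by 0.59, JUN by 0.77 and DDIT3 by 0.27. After 24 h with TiO2-NB at 100 µg/ml, FOXO3 fell by 1.51 and STAT3 by 0.76. FOXO3 is known as an activator of BCL2L11 and STAT3 of MCL1 and BCL2L1. Of 9 genes that govern MCL1 protein turnover, 1 was called over the 8 comparisons with control: FBXW7, which marks MCL1 for degradation, fell by 0.47 after 24 h with TiO2-NB at 100 µg/ml (adjusted p = 0.00241).

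The genes whose pattern over the 10 group means was most like that of a member were sought among 5100 genes called by the F-test, by Pearson's r, as a description. For BCL2L1 212312_at these were HNRNPDL (0.995), IFNGR1 (0.994) and C3orf52 (0.994), and for MCL1 200797_s_at C1orf116 (0.975), SERTAD3 (0.951) and ZNF394 (0.947). For BAK1 they were SERPINB8 (0.964), UBE2A (0.949) and ARPC4 (0.949), and for BID TMED1 (0.945), MRPL35 (0.944) and MRPS34 (0.934). The points are 10 group means that share the split between 24 h and 1 h.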

How the data were processed

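RNA of 30 cultures was hybridised to Affymetrix arrays, and the authors deposited log2 levels made with RMA, per the submitters' processing notes; no source used here gives the version of RMA or the chip definition. The log2 values were used as deposited. Arrays have no read depth, and their number limits the precision. Of 22277 probe sets, 62 control probe sets were left out. Symbols came from the platform annotation (19064 probe sets with 1 symbol, 1043 with several, 2108 with none), and all 8 members matched RefSeq.

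In R 4.3.3 with limma 3.58.1, 1 mean per group was fitted over all 30 arrays (lmFit, eBayes; 20 residual and 3.68 prior degrees of freedom), with 25 two-sided contrasts, each adjusted by Benjamini-Hochberg over 22215 probe sets. The fit was checked on simulated data. Ribosomal RNA, GAPDH and ACTB probe sets were compared by exact permutation tests.

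All member probe sets are named. Of each list of pathway genes, up to 4 called genes in each comparison with control are named, those with the smallest p. The members and lists were chosen with earlier results of these data known. Results were also computed with only the arrays of the compared groups, with the replicate number as a block in the fit, without the dimmest 1 in 3 of probe sets, after quantile normalising again, with an intensity trend and robust variances, with array weights, with the 18S level as a covariate, from 1 probe set per gene, and without each array in turn. Of the 58 calls of single probe sets, 45 could be computed without the dimmest probe sets and 18 from 1 probe set per gene. All these fits were run for the member probe sets only. For the F-test, they were added after the data were seen.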

Additional observations from a re-analysis of the deposited data

Results flagged for a closer look

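For 3 results the effect in one group differed from that in another by a test of the difference itself. BCL2L1 206665_s_at was lower with MWCNT than with TiO2-NB at 100 µg/ml for 24 h, by -0.40 ± 0.0986 on the log2 scale (limma, adjusted p = 0.0208, n = 3 arrays each), with group means of 6.34 and 6.74. The call was lost in a fit on those 2 groups only and in 5 of the 6 fits that leave out 1 array, with an adjusted p of up to 0.105, while the difference stayed between -0.42 and -0.39.

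The effect of MWCNT at 100 µg/ml on BCL2L1 at 24 h minus that at 1 h was -0.73 for 215037_s_at and -0.60 for 206665_s_at. The first held whichever array was left out, with values from -0.79 to -0.66 and an adjusted p of at most 0.049. The second lost its call without MWCNT 100 µg/ml 1 h replicate 3, control 24 h replicates 2 and 3, or MWCNT 100 µg/ml 24 h replicate 1, with an adjusted p of up to 0.0645. Both lost their call with the 18S level in the fit. Which property of the cultures or arrays these differences go with was not tested.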

How the results depend on the processing

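Over all alternatives run, no member's call changed direction. Of 58 calls of single probe sets, 24 were lost in a fit on the compared groups only, which leaves fewer arrays for the spread, 20 with the 18S level as a covariate, 6 with array weights, 4 with the intensity trend, 4 with a second quantile normalisation and 0 of 45 with the lowest 1 in 3 of probe sets left out. Of the same 58 calls, 4 were lost with the replicate block, and from 1 probe set per gene 0 of 18. With each array of the compared groups left out in turn, a call was lost in 87 of 360 cases. The count of members called at 1 h was 4 and 7 with MWCNT at 10 and 100 µg/ml and 3 and 6 with TiO2-NB. In that order it became 1, 1, 0 and 1 in the fit on the compared groups only, and 1, 0, 1 and 2 with the 18S covariate. It became 1, 4, 1 and 2 with 1 probe set per gene, where at most 8 could be called, and array weights gave 4 at MWCNT 100 µg/ml. Between particles, 1 call became 0 in the fit on the compared groups only and with 1 probe set per gene, and 2 with the low filter, the trend or the weights. In the controls over time, 5 became 3 in the fit on the compared groups only and 2 with 1 probe set per gene, and in the exposed conditions 30 became 9 with 1 probe set per gene. The 2 calls on the effect at 24 h minus that at 1 h became 5 with the low filter, and 0 with the 18S covariate or 1 probe set per gene. Apart from the rule on probe sets and the fewer arrays, the cause was not tested.

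With each array left out in turn, the 1 h counts ran from 2 to 5, 2 to 4, 0 to 3 and 2 to 5. The 24 h counts stayed at 0, dose ran from 0 to 1, particle from 0 to 2, the controls over time from 4 to 5, the exposed conditions over time from 27 to 31, the effect at 24 h minus that at 1 h from 1 to 3, and the F-test from 10 to 13. The count with MWCNT at 100 µg/ml was 2 without control 1 h replicate 2, MWCNT replicate 2 or MWCNT replicate 3. With TiO2-NB it was 0 at 10 µg/ml without control 1 h replicate 2, and 2 at 100 µg/ml without control 1 h replicate 3. Leaving out replicate 1 of MWCNT at 10 µg/ml gave 2 there.

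Same-numbered arrays showed no strong common shift. Their deviations from their group means correlated at a median of 0.008 (-0.279 to 0.209 over 135 pairs), against -0.006 for different numbers. The pairs were taken within and across the 2 times, so this cannot exclude that some wells or runs were paired. With the replicate block the 1 h counts were 3, 6, 2 and 5, the controls over time 5, the exposed conditions over time 31, particle 1, the effect at 24 h minus that at 1 h 2, and dose and the 24 h comparisons 0. Narrow ranges and 7 dim probe sets limit what these arrays can show.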
